A study of Mus musculus with 2 samples.

Results

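Genes that govern iron handling and ferroptosis were followed in single cells of the mouse maxillary periodontium, which holds the upper teeth in the jaw. The set holds 9 genes of the 32285 in the gene list, taken by their symbols: Gpx4, Slc7a11, Acsl4, Hmox1, Fth1, Ftl1, Tfrc, Slc40a1 and Ncoa4. All 9 were listed and all 9 had unique molecular identifiers (UMIs, 1 per captured mRNA) in both libraries. The libraries carry the titles RP and 377P, with 1 library each, made from the maxillary periodontium with the droplet-based Chromium 3′ v3 kit of 10x Genomics. The series title speaks of diabetic periodontitis and its resolution. The labels give neither library a genotype, strain, treatment, time or age, do not say what the titles stand for, and do not give the number of animals pooled. Neither library is therefore treated as a control, and the values compare these libraries, not conditions. With 1 library per title there is no replicate check, no test and no p-value. Every interval below is an exact 95% interval that covers counting error only.

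Ferroptosis is a form of cell death driven by iron-dependent peroxidation of membrane lipids. The enzyme Gpx4 reduces lipid peroxides with glutathione, Slc7a11 (xCT) imports the cystine from which glutathione is made, and Acsl4 activates the polyunsaturated fatty acids that are most easily oxidised. Tfrc takes up transferrin-bound iron, Fth1 and Ftl1 form the ferritin shell that stores it, Ncoa4 delivers ferritin to lysosomes for breakdown, Hmox1 releases iron from heme, and Slc40a1 (ferroportin) exports it. Iron regulatory proteins bind hairpins called iron responsive elements in some of these mRNAs, which blocks translation when the element is in the 5′ UTR and protects the mRNA from decay when it is in the 3′ UTR. In GRCm38 (mm10), the cystine, lipid and peroxide genes are Slc7a11 at chr3:49892526-50443614, Gpx4 at chr10:80047166-80056439 and Acsl4 at chrX:142317993-142390535. The ferritin genes and their receptor are Fth1 at chr19:9980598-9985098, Ftl1 at chr7:45457944-45459884 and Ncoa4 at chr14:32159865-32179855. The genes of heme breakdown, uptake and export are Hmox1 at chr8:75093621-75100589, Tfrc at chr16:32608920-32632794 and Slc40a1 at chr1:45908068-45926523.

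The elements are shown because they mark which of the 9 mRNAs are under this iron-dependent control and differ in where they sit. A search for a C, 5 bases, the loop CAGTGN with a last base other than G, and 5 bases that pair with the first 5 found such an element in the principal transcripts of 4 of the 9 genes. GENCODE M21 transcripts of GRCm38 (mm10) were searched, and the 26 bases are printed with the loop in capitals, in the sense of the mRNA.
Fth1 5′ UTR, chr19:9982734-9982759, plus strand: cctgcttcaaCAGTGCttgaacggaa
Ftl1 5′ UTR, chr7:45459780-45459805, minus strand: cttgcttcaaCAGTGTttgaacggaa
Slc40a1 5′ UTR, chr1:45925466-45925491, minus strand: acttcagctaCAGTGTtagctaagtt
Tfrc 3′ UTR, chr16:32631221-32631246, plus strand: ttatcggaagCAGTGCcttccataat
Tfrc 3′ UTR, chr16:32631600-32631625, plus strand: ttatcgggagCAGTGTcttccataat
Tfrc 3′ UTR, chr16:32631665-32631690, plus strand: atatcggagaCAGTGAtctccatatg
Tfrc 3′ UTR, chr16:32631712-32631737, plus strand: ttatcgggaaCAGTGTttcccataat
The same search matched the 5′ UTR of 23 and the 3′ UTR of 100 of 21901 protein-coding genes. The iron export and ferritin mRNAs carry the element before the coding sequence, where it acts on translation, so UMIs do not report on it. Only Tfrc carries it after the coding sequence, where it acts on the amount of mRNA. No match in the other mRNAs says only that these letters are not in the UTRs searched.

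A stretch of the Slc7a11 promoter is shown for its range of levels among cell classes with at least 50 cells. This range was the widest of the genes detected in every such class. It holds 2 matches, 1 on each strand, to TTGCATCA, the core of the amino acid response element bound by Atf4, in capitals below. It is RefSeq's sequence of GRCm38.p6, read in the direction of transcription from 80 to 21 bases before the gene start.
Slc7a11 promoter, chr3:50443634-50443693, minus strand: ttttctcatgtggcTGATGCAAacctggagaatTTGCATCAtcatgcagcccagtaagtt
Of 32851 promoters of 300 bases in the same table, 0.895% hold at least 1 match on either strand. The table holds 14 promoters of 7 of the 9 genes. It holds none for Hmox1 and Slc40a1, so neither motif was searched for in these genes. None of the other 13 has this motif, and TGACNNNGC, the core of the antioxidant response element, was found once, in 1 of the promoters of Ncoa4, against 12.4% of all promoters. A match describes the letters and is not a binding site.

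After filters, 16721 cells of RP and 14515 of 377P were kept, from 120909095 and 127094166 deposited UMIs. Each cell was assigned to a class only by its markers, so a class name means cells like that type by this gate. Of the kept cells, 3429 in RP and 3818 in 377P passed no gate. Keratinocytes (3261 in RP, 3377 in 377P) and fibroblasts (3635 and 2537) were the largest of the remaining classes. Gland or respiratory epithelial cells were 14.3% of RP and 2.50% of 377P, and no cell of either library passed the osteoblast gate. Levels by class were ranked only for classes with at least 50 cells in a library, and statements on the highest, lowest or every class refer to these. Chondrocytes, osteoclasts, dendritic cells, mast cells or basophils, erythroid cells and the neuronal cells of RP were under this floor and were not ranked. Cells of the libraries mostly fell into separate clusters: fibroblasts of RP lay in clusters 27 (3259 cells of RP, 5 of 377P) and 28 (668 and 2) and those of 377P in cluster 7 (1 cell of RP, 2681 of 377P). Summed Muc5b, Tff2 and Bpifb2, gland secretory genes, stood at 6148 to 14302 CPM (UMIs of a gene per 1000000 UMIs of the class) in the other classes of RP and at 803 to 1750 CPM in those of 377P. The libraries share 82 barcodes. Fewer cells of a sub-type and less RNA per cell cannot be told apart in summed counts.

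Slc7a11, the cystine importer, was concentrated in myeloid cells in both libraries. Neutrophils held 4774 CPM in RP (4499 to 5062, 1121 UMIs) and 3241 CPM in 377P (3013 to 3481, 750 UMIs). Monocytes or macrophages came next with 585 CPM in RP (559 to 612) and 748 CPM in 377P (712 to 786), followed by gland or respiratory epithelial cells with 74.2 and 65.8 CPM. Every other ranked class was below 50 CPM. Classes under the floor of 50 cells were not ranked, but some held Slc7a11 too. Dendritic cells held 34 UMIs in 18 cells of RP and 90 in 19 cells of 377P. Mast cells or basophils held 39 UMIs in 40 cells of RP and 16 in 29 cells of 377P. A Slc7a11 UMI was seen in 96.1% of neutrophils of RP (90.4% to 98.9%, Clopper-Pearson) and 97.2% of those of 377P (90.3% to 99.7%), at median depths of 1727 and 2359.5 UMIs. It was seen in 3.86% and 3.20% of T or NK cells, which were deeper, at 3292 and 4724 UMIs. With every cell thinned to 1500 UMIs, the shares were 92.8% and 95% of neutrophils and 1.71% and 0.975% of T or NK cells. Neutrophils were 0.616% of the kept cells of RP and 0.496% of those of 377P, yet held 13.8% and 12% of all Slc7a11 UMIs. The order of the 3 highest ranked classes was the same in both libraries with no overlap of neighbouring intervals. Further down, 6 of 10 neighbouring pairs in RP and 7 of 11 in 377P overlapped.

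Gpx4, the peroxidase, was read in every ranked class and varied least of the 9 genes between highest and lowest, by 3.27-fold in RP and 3.82-fold in 377P. Schwann cells stood at 442 CPM in RP (381 to 509) and 368 CPM in 377P (304 to 441), above perivascular cells with 313 CPM (296 to 332) and 334 CPM (311 to 358), from which the interval was separate in RP and not in 377P. Neuronal cells, gated in sufficient number in 377P alone, were at 397 CPM. B or plasma cells were lowest in both, with 135 CPM in RP (114 to 159) and 104 CPM in 377P (95.3 to 113). Neutrophils, at 247 and 272 CPM, were in the middle of the order, unlike for Slc7a11.

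Among the ranked classes, Acsl4, the acyl-CoA synthetase that makes lipids oxidisable, was highest in fibroblasts in RP, and in 377P in neuronal cells and then fibroblasts. Fibroblasts held 124 CPM in RP (120 to 129) and 114 CPM in 377P (109 to 119), and the neuronal cells of 377P 144 CPM (113 to 182), an interval that overlaps that of the fibroblasts. T or NK cells were next with 87.1 CPM in RP (74.1 to 102) and 90.4 CPM in 377P (83.2 to 97.9). The lowest were gland or respiratory epithelial cells in RP (28.9 CPM) and keratinocytes in 377P (34.6 CPM). Neighbours in this order mostly could not be told apart, with 9 of 10 pairs overlapping in RP and 10 of 11 in 377P.

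Ferritin mRNA followed the phagocytes. Fth1, the ferroxidase subunit, was highest in neutrophils with 21389 CPM in RP (20801 to 21989) and 18335 CPM in 377P (17787 to 18895), then in monocytes or macrophages with 15088 and 13318 CPM. Of the ranked classes, lymphatic endothelial cells came after these with 8917 CPM in RP and 8718 CPM in 377P, over 3 times the 2807 and 2659 CPM of blood endothelial cells. Chondrocytes, under the floor of 50 cells and so not ranked, held 2593 Fth1 UMIs in 42 cells of RP and 1119 in 16 cells of 377P. B or plasma cells were lowest with 1563 and 1327 CPM. The order of Fth1 was the sharpest of the 9 genes: no neighbouring pair overlapped in RP and 1 of 11 did in 377P, where neuronal cells had entered the order.

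Ftl1, the light ferritin subunit, differed from Fth1 in which class led. Monocytes or macrophages stood at 7212 CPM in RP (7120 to 7305) and 5881 CPM in 377P (5778 to 5986), above neutrophils with 4476 CPM (4210 to 4755) and 4010 CPM (3756 to 4277). Fibroblasts were next of the ranked classes in both, at 1966 and 2036 CPM. Lymphatic endothelial cells, which were above fibroblasts for Fth1, had 914 and 897 CPM, close to blood endothelial cells with 875 and 835. Ftl1-ps1, a near-identical copy in the same gene list, had 62.3 CPM in monocytes or macrophages of RP and 52.9 CPM in those of 377P. How the authors' counting split reads between these copies is not given in the sources used here, so Ftl1 values are uncertain to that extent.

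Ncoa4, the ferritin cargo receptor of ferritinophagy, had few UMIs. Of the ranked classes, neutrophils were highest with 63.9 CPM in RP (35.8 to 105) and 64.8 CPM in 377P (36.3 to 107), each from 15 UMIs. All other ranked classes lay between 9.32 and 33.6 CPM in RP and between 10.0 and 47.6 CPM in 377P. Mast cells or basophils, under the floor of 50 cells, held 11 UMIs in 40 cells of RP and 6 in 29 cells of 377P and were not ranked. Every neighbouring pair in the order overlapped in RP and 10 of 11 in 377P, so the order of the classes is largely unresolved.

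Hmox1, heme oxygenase 1, was highest in monocytes or macrophages with 794 CPM in RP (764 to 826) and 810 CPM in 377P (772 to 849). A UMI was seen in 74.0% and 75.2% of these cells, at median depths of 4839.5 and 6029 UMIs. Neutrophils followed with 349 CPM (278 to 433) and 294 CPM (228 to 373), then fibroblasts with 160 and 245 CPM and lymphatic endothelial cells with 117 and 118 CPM. In 377P the interval of neutrophils overlapped that of fibroblasts (238 to 252). T or NK cells were lowest at 19.7 and 18.8 CPM, with a UMI in 7.32% and 7.85% of cells at median depths of 3292 and 4724 UMIs. The highest class thus stood 40.3-fold above the lowest in RP and 43.1-fold in 377P. By number of cells rather than level, fibroblasts held more of the Hmox1 UMIs than macrophages did: 33.2% of all in RP and 45.2% in 377P, against 26.3% and 16.4% in monocytes or macrophages.

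Tfrc, the transferrin receptor, was highest in lymphocytes among the ranked classes, and Fth1 was low there. T or NK cells held 52.6 CPM in RP (42.6 to 64.2) and 54.9 CPM in 377P (49.4 to 60.9), B or plasma cells 51.3 CPM (38.6 to 66.7) and 48.0 CPM (42.3 to 54.3), and keratinocytes 37.9 CPM (35.9 to 39.9) and 35.4 CPM (33.8 to 37.0). Keratinocytes held 51.8% of all Tfrc UMIs of RP and 50.3% of those of 377P. Fibroblasts were at 9.26 CPM in RP and 12.9 CPM in 377P, and neutrophils at 12.8 and 8.64 CPM from 3 and 2 UMIs. Over the 23 class-by-library values, log2(CPM + 10) of Tfrc and Fth1 had a Pearson r of -0.59 and that of Tfrc and Ftl1 one of -0.27, as a description, since values of 1 library share its depth and free RNA.

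Slc40a1, the iron exporter, was the rarest of the 9, with 195 UMIs among all kept cells of RP and 222 among those of 377P. Neutrophils had the highest level, 34.1 CPM in RP (14.7 to 67.1) and 56.2 CPM in 377P (29.9 to 96.1), from 8 and 13 UMIs. Monocytes or macrophages, the cells through which much of the body's iron is recycled, had 5.86 CPM in RP (3.53 to 9.16) and 4.25 CPM in 377P (1.94 to 8.07), with 19 and 9 UMIs. Fibroblasts held the most UMIs, 72 in RP and 78 in 377P, at 3.55 and 4.05 CPM. Schwann cells had none, with upper limits of 8.62 CPM in RP and 11.7 CPM in 377P. In all, 8 of 10 neighbouring pairs in RP and 10 of 11 in 377P overlapped.

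**Figure D1:**
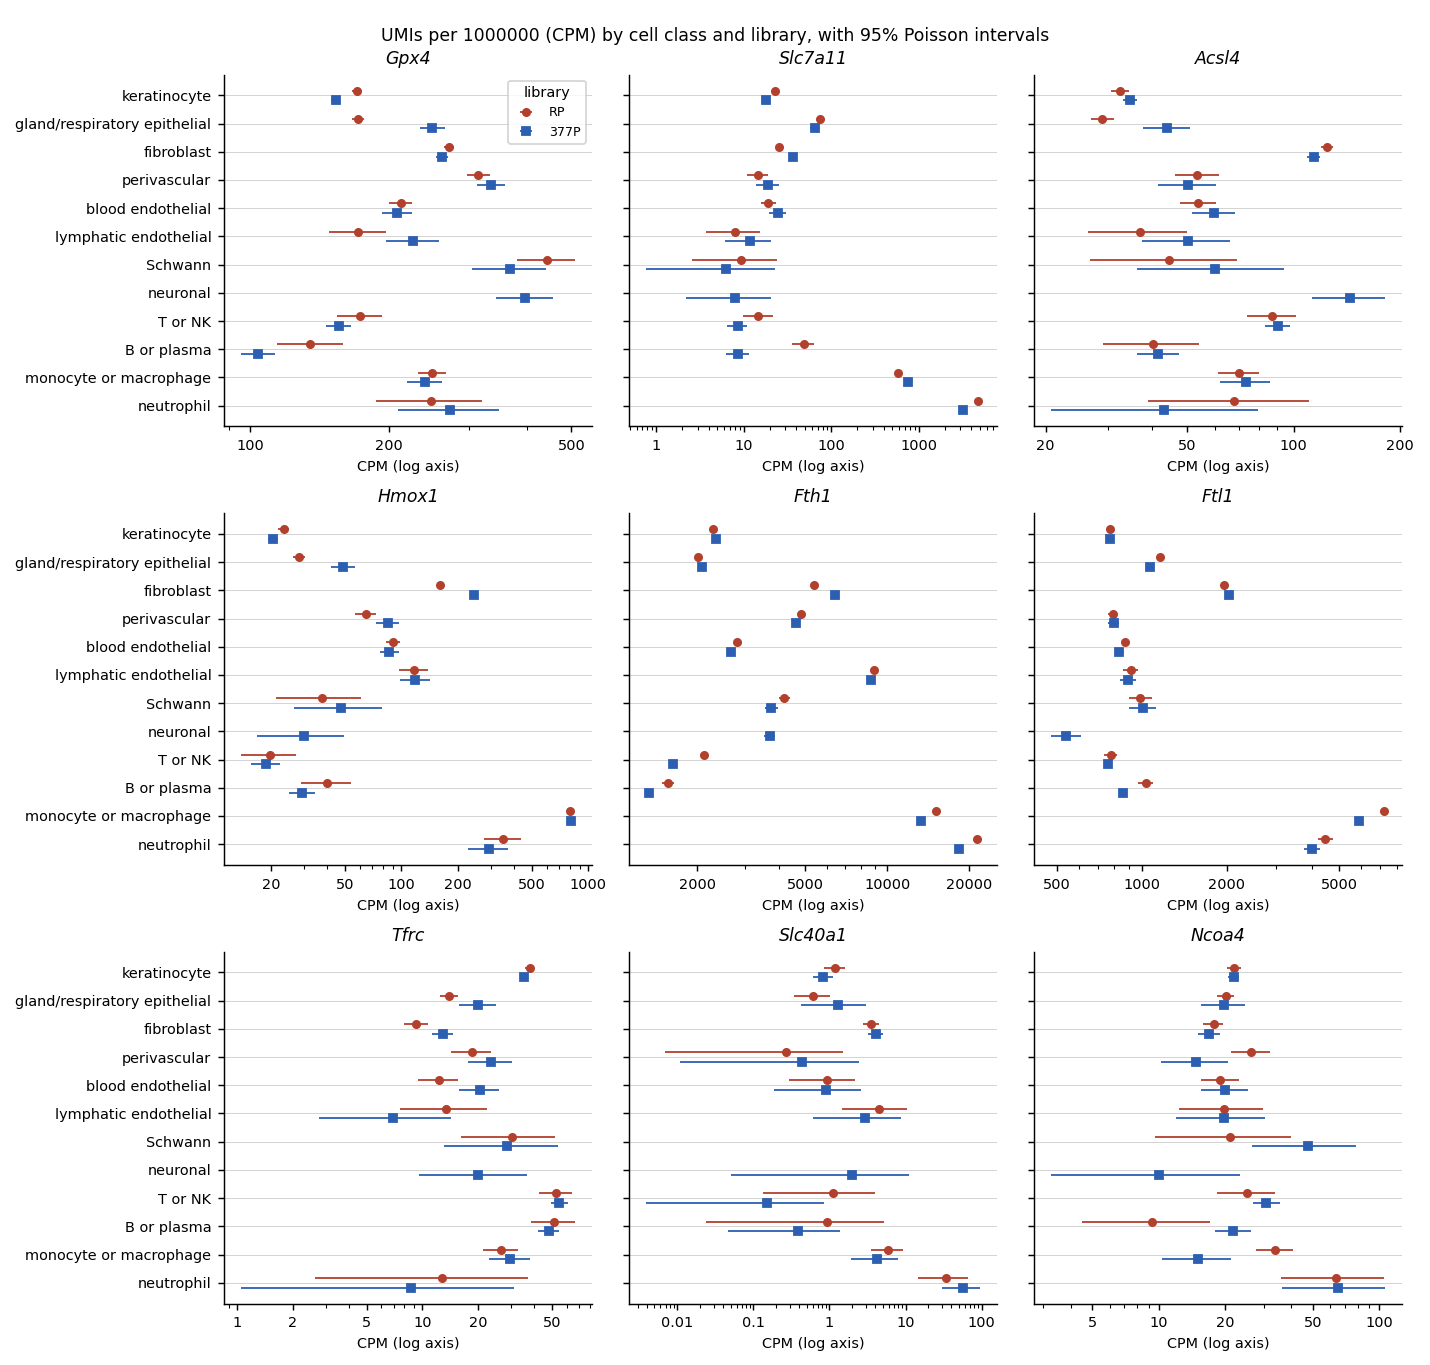
Level of each gene in CPM (log axis, a different range in each panel) in the 12 marker-gated cell classes with at least 50 cells in a library. RP is shown as circles above 377P as squares, with bars for exact 95% Poisson intervals. A level of 0 (Slc40a1 in Schwann cells) and the neuronal class of RP, which had 17 cells, are not drawn. Slc7a11 and Fth1 are highest in neutrophils, Hmox1 and Ftl1 in monocytes or macrophages and Tfrc in lymphocytes.

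The libraries were compared in the 8 classes with at least 200 cells in each, for genes with at least 50 UMIs over both libraries in the class. This gave 66 of the 72 possible pairs of gene and class. All 6 pairs left out were of Slc40a1, which was compared in keratinocytes and fibroblasts alone. At a ratio of at least 1.5, 4 pairs (6.06%) were higher in RP and 5 (7.58%) were higher in 377P, and 57 were neither. Of all 88359 pairs of a gene and a class, 7.76% were higher in RP and 6.89% higher in 377P by the same rule, so the 9 genes passed about as often as genes in general. Intervals lay above 1 for 17 pairs and below 1 for 15.

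By class, none of the 9 genes tested in keratinocytes passed in either direction (all genes: 11.8% higher in RP, 3.12% in 377P). In fibroblasts 1 of 9 was higher in 377P and none in RP (all genes: 5.1% in RP, 4.3% in 377P). In gland or respiratory epithelial cells 2 of 8 were higher in 377P (17.9% of all genes) and none in RP (9.38%). Perivascular cells had 1 of 8 higher in RP (4.68% of all genes) and none in 377P (4.24%), and blood endothelial cells 1 of 8 higher in 377P (5.5%) and none in RP (4.78%). T or NK cells had 1 of 8 higher in RP (9.61% of all genes) and none in 377P (5.68%). B or plasma cells had 1 of 8 in each direction (8.29% of all genes in RP, 8.39% in 377P). Monocytes or macrophages had 1 of 8 higher in RP (6.86%) and none in 377P (5.62%). Medians of the log2 ratio over the 9 genes ran from -0.28 in gland or respiratory epithelial cells to 0.25 in B or plasma cells, against -0.11 and -0.03 over all genes of those classes.

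**Figure D2:**
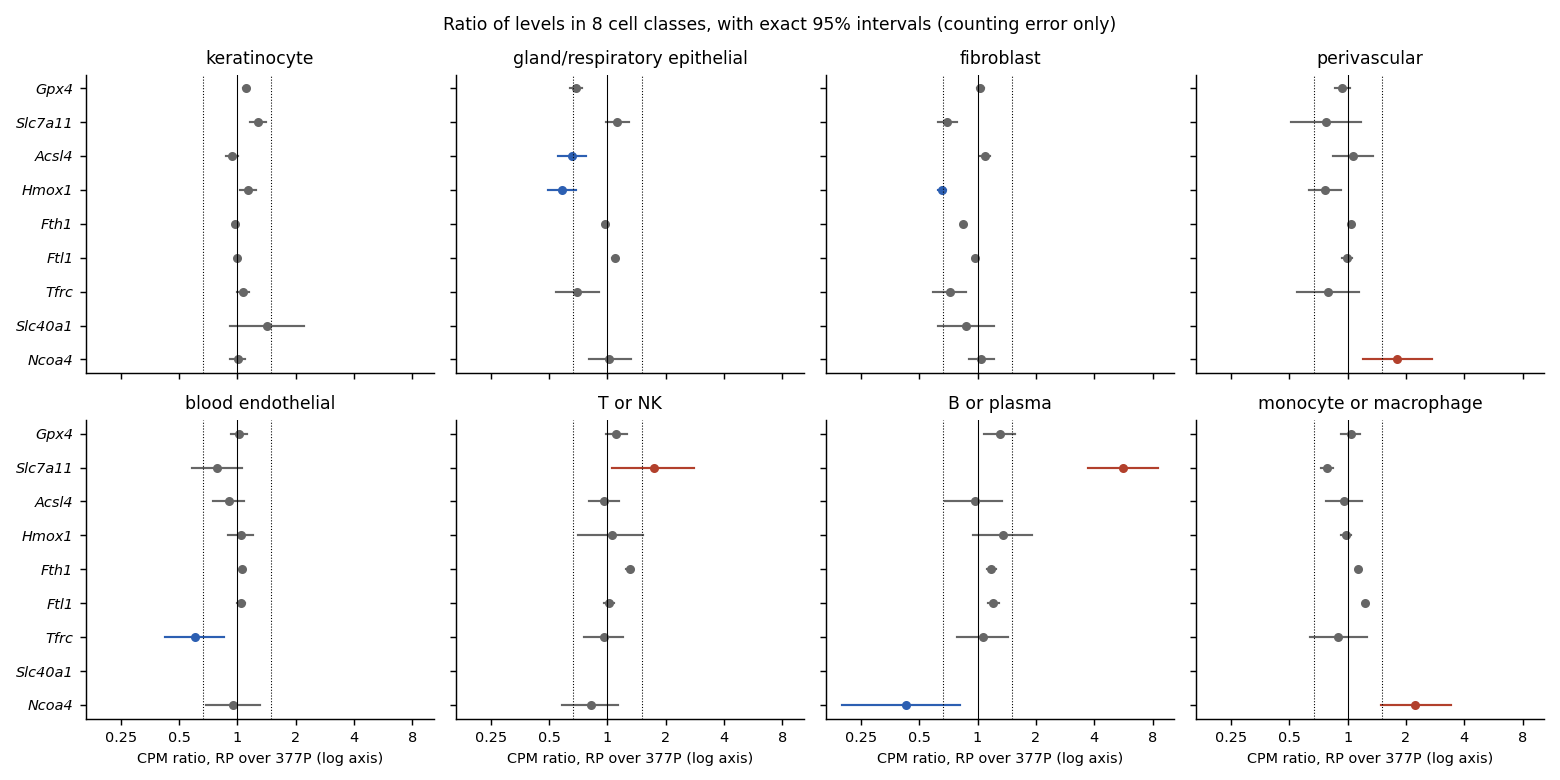
Ratio of CPM, RP over 377P (log axis), of each gene in 8 cell classes with exact 95% intervals, for pairs with at least 50 UMIs. The solid line marks 1 and the dotted lines a 1.5-fold difference in either direction; red points are higher in RP by at least 1.5-fold (4 of 66) and blue ones higher in 377P (5 of 66).

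In fibroblasts, Hmox1 was lower in RP. It had 160 CPM in RP (155 to 166, 3255 UMIs) and 245 CPM in 377P (238 to 252, 4715 UMIs), a ratio of 0.654 (0.626 to 0.685). A UMI was seen in 39.8% of fibroblasts of RP and 52.0% of those of 377P, at median depths of 4792 and 6651 UMIs, and in 18.1% and 23.9% with cells thinned to 1500 UMIs. Both fibroblast clusters of RP, at 169 and 138 CPM, lay below the 239 CPM of the fibroblast cluster of 377P. Fth1 was 5391 CPM in RP and 6399 CPM in 377P (ratio 0.843, 0.836 to 0.849), Slc7a11 25.7 and 36.8 CPM (0.698, 0.622 to 0.782) and Tfrc 9.26 and 12.9 CPM (0.719, 0.591 to 0.872), all within 1.5-fold. Gpx4, Ftl1 and Ncoa4 had ratios of 1.03, 0.966 and 1.05, and Acsl4 1.09 (1.03 to 1.16). Summed Hspa1a, Hspa1b, Fos and Jun, genes that respond to dissociation stress, were at 11103 CPM in fibroblasts of RP and 11544 CPM in those of 377P.

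Gland or respiratory epithelial cells had lower levels of several of the genes in RP. Hmox1 had 28.3 CPM in RP (689 UMIs) and 48.7 CPM in 377P (190 UMIs), a ratio of 0.581 (0.494 to 0.686). Acsl4 had 28.9 and 44.1 CPM, a ratio of 0.656 (0.554 to 0.779), and Gpx4 172 and 249 CPM, a ratio of 0.69 (0.644 to 0.741), just inside 1.5-fold. The Hmox1 value of 377P leaned on few cells: 5 of its 363 cells held 32.1% of the Hmox1 UMIs, against 8.0% in 5 of the 2399 cells of RP. As a mean over cells of normalised UMIs rather than a ratio of sums, the log2 ratio of Hmox1 was 0.14 in place of -0.78, so its direction rests on this choice. With clusters in place of the gate it was -0.23, under the 1.5-fold line. Acsl4, at a log2 ratio of -0.61, fell under that line in 7 of the alternatives: its values were -0.04 with cells thinned to 1500 UMIs, -0.22 with clusters, -0.28 as a mean over cells, and -0.43 to -0.58 in the other 4. Slc7a11 (1.13, 0.988 to 1.29), Ncoa4 (1.02) and the ferritin genes Fth1 (0.969) and Ftl1 (1.09) were within 1.13-fold. The class differed in make-up between the libraries: cluster 3 held 1283 cells of RP and 71 of 377P, and cluster 17 1264 and 150.

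Ncoa4 differed in opposite directions in 2 immune classes. In monocytes or macrophages it had 33.6 CPM in RP (27.6 to 40.6, 109 UMIs) and 15.1 CPM in 377P (10.3 to 21.3, 32 UMIs), a ratio of 2.22 (1.49 to 3.41). In B or plasma cells it had 9.32 CPM in RP (4.47 to 17.1, 10 UMIs) and 21.8 CPM in 377P (18 to 26.2, 114 UMIs), a ratio of 0.427 (0.2 to 0.815). Perivascular cells went with the macrophages, with 26.4 CPM in RP (97 UMIs) and 14.7 CPM in 377P (34 UMIs), a ratio of 1.79 (1.2 to 2.73). In the other 5 classes the ratios were between 0.818 and 1.05. Where clusters replaced the gate, the macrophage and perivascular values were log2 0.55 and 0.54 in place of 1.15 and 0.84, both under the 1.5-fold line. The value in B or plasma cells, log2 -1.23, was -0.74 with clusters and -0.39 with cells thinned to 1500 UMIs, which is under that line.

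Slc7a11 was higher in lymphocytes of RP, at levels far below those of myeloid cells. B or plasma cells had 48.5 CPM in RP (36.2 to 63.6, 52 UMIs) and 8.61 CPM in 377P (6.28 to 11.5, 45 UMIs), a ratio of 5.63 (3.70 to 8.59) or 2.49 on the log2 scale. With clusters in place of the gate the log2 ratio was 1.26, from 16.8 CPM in cluster 26 of RP and 7.02 CPM in cluster 6 of 377P, and as a mean over cells it was 1.27. T or NK cells had 14.8 CPM in RP (27 UMIs) and 8.55 CPM in 377P (56 UMIs), a ratio of 1.73 (1.05 to 2.79). In B or plasma cells of RP, 4 of 306 cells held 39 of the 52 UMIs. Markers of monocytes, macrophages and neutrophils summed to 1620 CPM in these 4 cells and to 435 CPM in the other 302, and their part in the result was not tested. Among B or plasma cells with fewer than 3 Slc7a11 UMIs, 302 cells of RP held 13 in 1024503 UMIs. The 1465 such cells of 377P held 38 in 5218317 UMIs. Over all B or plasma cells the 13 monocyte or macrophage markers summed to 360 CPM in RP, with 2 of them at 0, and to 123 CPM in 377P, with none at 0. The 9 neutrophil markers summed to 129 and 117 CPM, with 1 at 0 in each library. In T or NK cells the monocyte or macrophage markers summed to 441 CPM in RP and 182 CPM in 377P, with none at 0, and the neutrophil markers to 109 CPM (3 at 0) and 117 CPM (none at 0).

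Tfrc passed 1.5-fold in blood endothelial cells alone, with 12.3 CPM in RP (9.50 to 15.6, 67 UMIs) and 20.4 CPM in 377P (15.8 to 25.8, 68 UMIs), a ratio of 0.602 (0.423 to 0.856). Its ratios in the other 7 classes ran from 0.696 to 1.07. In the classes where Tfrc was highest the libraries differed little: 0.957 in T or NK cells (0.756 to 1.2), 1.07 in B or plasma cells (0.782 to 1.43) and 1.07 in keratinocytes (0.998 to 1.15). Gpx4, Fth1, Ftl1 and Slc40a1 passed in no class compared. Gpx4 ratios ran from 0.69 to 1.30, those of Fth1 from 0.843 to 1.30 and those of Ftl1 from 0.966 to 1.23. The highest Fth1 ratio, in T or NK cells, leaned on 1 cell of RP that held 769 of the 3868 UMIs, where no cell of 377P held more than 52. Its log2 value of 0.38 was 0.18 as a mean over cells, 0.10 with a stricter gate and 0.04 with clusters, at 1736 CPM in RP and 1682 CPM in 377P.

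In monocytes or macrophages as a whole, ferritin was somewhat higher in RP, with a ratio of 1.13 for Fth1 (1.12 to 1.15) and 1.23 for Ftl1 (1.2 to 1.25), and Slc7a11 was lower at 0.782 (0.731 to 0.836). These cells were divided by markers into monocytes (118 cells in RP, 85 in 377P), macrophages marked by Spp1, Trem2 and Gpnmb (143 and 85) and resident macrophages marked by C1q genes and Mrc1 (309 and 121). Spp1 macrophages had 23869.7 CPM of Fth1 in RP and 15742 CPM in 377P, a ratio of 1.52 (1.48 to 1.55), and 11482 and 7149 CPM of Ftl1, a ratio of 1.61 (1.55 to 1.66). The ferritin difference was of this size in Spp1 macrophages and not in the other sub-classes: in monocytes the ratios were 0.927 for Fth1 and 1.04 for Ftl1, and in resident macrophages 0.948 and 0.952. In Spp1 macrophages 5 cells held 18.5% of the Fth1 UMIs in RP and 23.8% in 377P, and as a mean over cells the ratios were 1.43 for Fth1 and 1.65 for Ftl1. These sub-class differences rest on 1 library each and were not tested against each other.

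Slc7a11 fell into another order among the same cells. Monocytes held 1389 CPM in RP (917 UMIs) and 1372 CPM in 377P (736 UMIs), a ratio of 1.01 (0.918 to 1.12). Spp1 macrophages held 510 and 711 CPM, a ratio of 0.718 (0.630 to 0.818), and resident macrophages 257 and 450 CPM, a ratio of 0.572 (0.493 to 0.664). Monocytes were thus highest in both libraries and resident macrophages lowest. In resident macrophages 5 cells held 57.6% of the Slc7a11 UMIs of 377P, against 23.8% in RP, and as a mean over cells the ratio was 0.712, close to the 0.727 of Spp1 macrophages. Hmox1 was more even: 868 and 932 CPM in monocytes, 735 and 631 in Spp1 macrophages and 883 and 914 in resident macrophages, with ratios from 0.931 to 1.16. The highest, in Spp1 macrophages, leaned on few cells: 5 cells held 42.3% of the Hmox1 UMIs in RP and 34.9% in 377P. As a mean over cells that ratio was 0.955. Ncoa4 was higher in RP in each sub-class, from 17 and 2 UMIs in monocytes, 33 and 10 in Spp1 macrophages and 52 and 17 in resident macrophages. Slc40a1 UMIs lay mostly in the resident cells, 11 of 18 in RP and all 9 in 377P. These were also the largest sub-class, with 309 cells in RP and 121 in 377P. The 9 UMIs of 377P came from 4 cells, 1 of which held 5, and in RP 5 resident cells held 72.7%. The counts thus show little about a preference.

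Keratinocytes showed no gene past 1.5-fold as a class, and were also divided into layers by markers. Suprabasal cells (545 in RP, 366 in 377P) had 2316 CPM of Fth1 in RP and 1556 CPM in 377P, a ratio of 1.49 (1.45 to 1.53), and basal cells (2623 and 2970) 2206 and 2459 CPM, a ratio of 0.897 (0.889 to 0.906). The suprabasal value of RP leaned on few cells: 5 of its 545 cells held 28.7% of the Fth1 UMIs, 1666 of them in 1 cell, against 7.49% in 5 of the 366 cells of 377P. As a mean over cells, a setting chosen after seeing the data, the suprabasal ratio was 1.53. Such a mean still includes the few cells with very high Fth1, so it does not check their weight. Keratinocyte clusters with Acsl4 about as low as in suprabasal cells had 1834 CPM of Fth1 in cluster 13 (863 cells of RP) and 1797 CPM in cluster 1 (788 cells of 377P). They were picked by Acsl4, a gene of the set, and not by layer markers. They need not be the gated suprabasal cells, so they cannot check the suprabasal difference. Hmox1 had 26.5 CPM in suprabasal cells of RP and 16.6 CPM in those of 377P, a ratio of 1.59 (1.26 to 2.03), against 1.06 (0.954 to 1.17) in basal cells. Ftl1 did not share this pattern, with ratios of 0.926 in suprabasal and 1.05 in basal cells. Acsl4 was higher in the basal layer in both libraries, with 37.3 CPM in RP and 37.7 CPM in 377P, against 15.2 and 13.4 CPM in suprabasal cells, and so was Gpx4, with 185 and 159 CPM against 117 and 108. Slc7a11 was higher in basal cells of RP that were not cycling, 29.9 CPM against 17.2 CPM in 377P, a ratio of 1.73 (1.53 to 1.97), but not in cycling ones (0.822, 0.683 to 0.987).

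**Figure D3:**
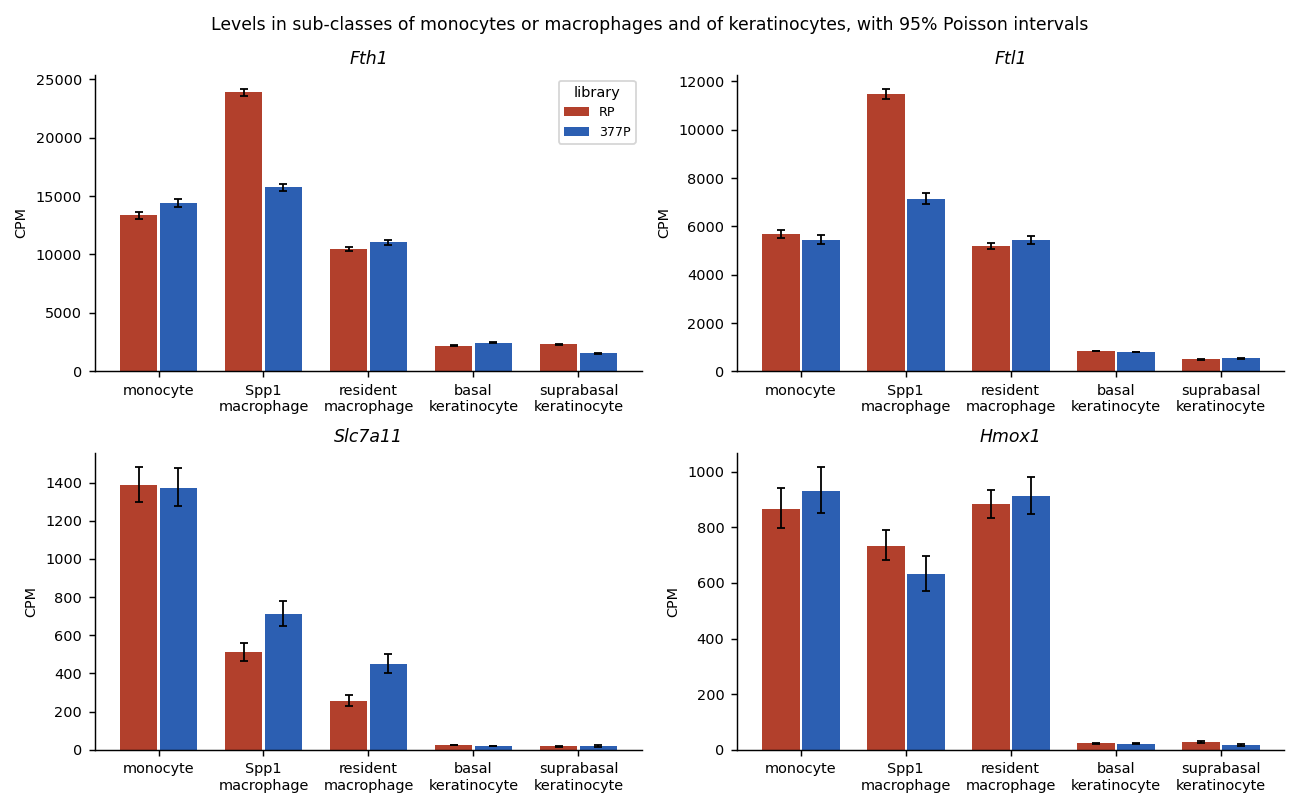
CPM of Fth1, Ftl1, Slc7a11 and Hmox1 (linear axes from 0) in 3 sub-classes of monocytes or macrophages and 2 of keratinocytes, with RP left of 377P and bars for exact 95% Poisson intervals. Ferritin is higher in RP in Spp1 macrophages (ratios 1.52 and 1.61), Slc7a11 is lower in RP in resident macrophages (0.572), and Hmox1 is similar in all 3 myeloid sub-classes.

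Cycling cells, those with at least 3 of 10 proliferation markers, were set against the rest of their class within each library. Hmox1 was lower in cycling fibroblasts and cycling basal keratinocytes of both libraries: in fibroblasts 61.0 CPM in cycling and 165 CPM in other cells of RP (ratio 0.370, 0.277 to 0.485) and 56.1 and 253 CPM in 377P (0.222, 0.160 to 0.299), from 39 and 27 cycling cells. In basal keratinocytes the Hmox1 ratio of cycling to other cells was 0.642 in RP (0.539 to 0.763) and 0.565 in 377P (0.490 to 0.650), from 771 and 862 cycling cells. Lymphocytes of 377P had intervals that include 1: the Hmox1 ratio was 1.07 in T or NK cells (0.451 to 2.18, 21 cycling cells) and 1.25 in B or plasma cells (0.752 to 2, 30 cycling cells). In RP these classes had under 20 cycling cells each and were not compared. Fth1 was lower in cycling fibroblasts too, with ratios of 0.640 in RP and 0.671 in 377P, but not in cycling basal keratinocytes (1.04 in RP, 1.02 to 1.06, and an interval of 0.991 to 1.01 in 377P). In cycling lymphocytes of 377P Fth1 was lower as well, at 0.740 in T or NK cells (0.674 to 0.810) and 0.790 in B or plasma cells (0.726 to 0.857). Gpx4 was higher in cycling fibroblasts by 1.28-fold in RP (1.13 to 1.44) and 1.52-fold in 377P (1.35 to 1.71). Tfrc, a receptor that dividing cells are known to need, was at ratios of 0.990 and 1.06 in basal keratinocytes, with both intervals including 1, and at 0.994 (0.423 to 2) and 1.77 (1.02 to 2.9) in fibroblasts.

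Around the 9 genes, 120 further genes of 9 pathway lists were followed in the same 8 classes. Of 708 pairs of a gene and a class with at least 50 UMIs, 65 were higher in RP by at least 1.5-fold and 42 higher in 377P, and 601 were neither, against 7.76% and 6.89% of all pairs. The median log2 ratio over the 708 pairs was -0.03. The list of iron storage, sensing and chaperone genes moved least, with none of 134 pairs higher in RP and 3 higher in 377P. The list of heme and hemoglobin handling had 15 of 88 pairs higher in RP and 4 in 377P, and the list of siderophore and lactoferrin iron binding 11 of 22 in RP and none in 377P, with a median log2 ratio of 0.69. The other lists had 5 and 6 of 67 (cystine uptake and glutathione synthesis), 5 and 7 of 104 (other suppressors of lipid peroxidation), 11 and 9 of 119 (lipid substrate and peroxidation enzymes), 8 and 4 of 80 (transcriptional regulators), 5 and 5 of 59 (iron uptake and reduction) and 5 and 4 of 35 (iron export), where the first count is of pairs higher in RP and the second of pairs higher in 377P.

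Of the 11 pairs of siderophore and lactoferrin genes, 7 were of Ltf, lactoferrin, in the classes outside the gland. Ltf was highest in gland or respiratory epithelial cells (1768 CPM in RP, 2638 CPM in 377P) and had 115 to 260 CPM in the other compared classes of RP, against 24.0 to 45.2 CPM in 377P. In those classes the summed gland secretory genes were also higher in RP, as given above, and their part in the Ltf values was not tested. Of the 15 pairs of the heme list higher in RP, 5 were in keratinocytes and 4 in monocytes or macrophages. In monocytes or macrophages Cd163, the receptor that clears hemoglobin bound to haptoglobin, had 127 CPM in RP and 72.3 CPM in 377P (ratio 1.76, 1.46 to 2.13), and Spic, a transcription factor of red pulp macrophages, 19.1 and 8.03 CPM (2.38, 1.38 to 4.35). Blvrb, a biliverdin reductase, had 227 and 130 CPM (1.74, 1.52 to 2.01), and Fech, the last enzyme of heme synthesis, 17.6 and 10.9 CPM (1.62, 0.982 to 2.75). Hmox1 itself had a ratio of 0.981 in monocytes or macrophages (0.922 to 1.04). Hemoglobin transcripts in monocytes or macrophages summed to 14.2 CPM in RP and 1.42 CPM in 377P. This was not particular to them: most classes were higher in RP, such as blood endothelial cells (30.6 and 11.4 CPM) and T or NK cells (7.12 and 0.763). B or plasma cells (3.73 and 5.55 CPM) and neutrophils (4.26 and 4.32) were not. In B or plasma cells Blvrb was lower in RP, with 55.9 CPM in RP and 88.6 CPM in 377P (0.631, 0.474 to 0.828).

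Among regulators of systemic iron, Bmp6, which induces hepcidin in the liver, was higher in keratinocytes of RP, with 72.1 CPM against 17.3 CPM in 377P (4.16, 3.86 to 4.49). Neo1, a co-receptor of hemojuvelin, was lower in blood endothelial cells of RP, with 25.8 CPM against 102 CPM in 377P (0.252, 0.206 to 0.308). Cp, the copper ferroxidase ceruloplasmin, and Steap4, a metalloreductase, were lower in fibroblasts of RP: 83.7 CPM against 129 CPM for Cp (0.649, 0.610 to 0.691) and 33.3 CPM against 54.5 CPM for Steap4 (0.611, 0.553 to 0.673). Steap4 was lower in perivascular cells of RP as well, 53.5 CPM against 107 CPM (0.502, 0.414 to 0.608). Hepcidin (Hamp) was near 0, with at most 4.94 CPM in any class of RP and 4.32 CPM in any of 377P.

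On the lipid and glutathione side, the lipoxygenase Alox15 in gland or respiratory epithelial cells had 8.21 CPM in RP and 52.3 CPM in 377P (0.157, 0.129 to 0.192), with Alox12 (0.183) and Alox12e (0.174) in the same direction. In keratinocytes Alox12 was higher in RP, with 11.8 CPM against 4.12 CPM in 377P (2.86, 2.43 to 3.38). Gclc, the catalytic subunit of the enzyme that starts glutathione synthesis, had 47.4 CPM in gland or respiratory epithelial cells of RP and 152 CPM in those of 377P (0.312). Gclc was chosen after its values were seen. In B or plasma cells Scd1, a desaturase that makes monounsaturated fatty acids, was lower in RP, with 144.5 CPM against 280 CPM in 377P (0.516, 0.434 to 0.609), and so was Gch1, which makes the cofactor tetrahydrobiopterin, with 106 and 179 CPM (0.592, 0.483 to 0.72).

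**Figure D4:**
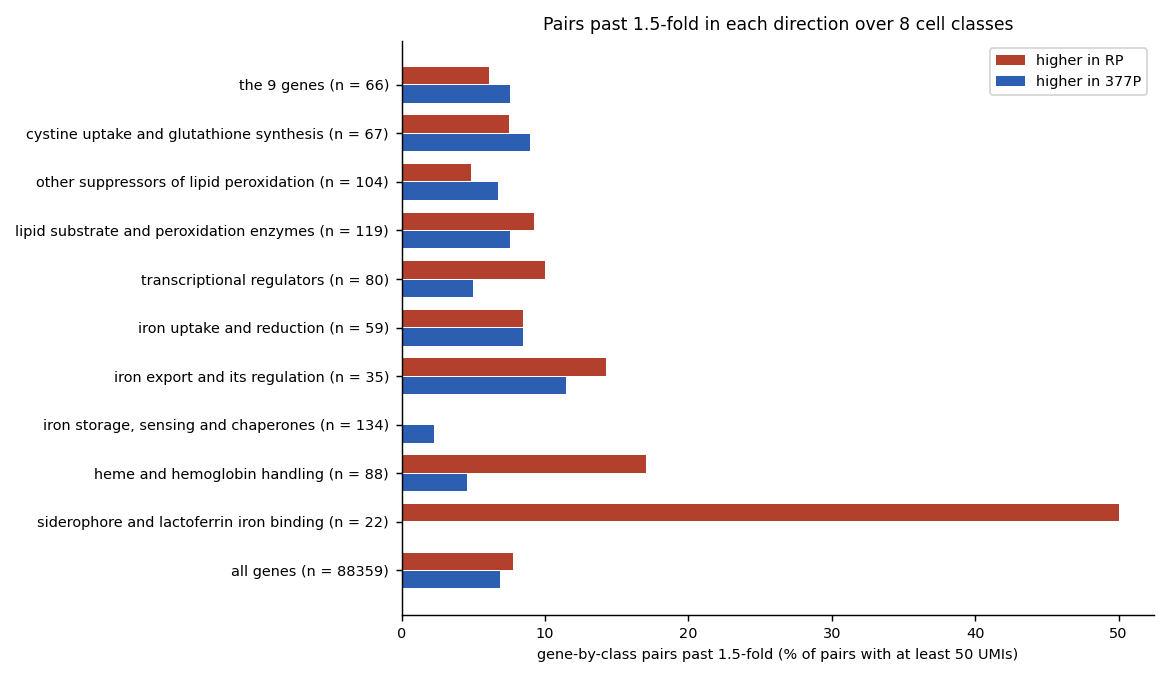
Share of pairs of a gene and a class that differed by at least 1.5-fold, higher in RP (red, upper bar) or higher in 377P (blue, lower bar), for the 9 genes, 9 pathway lists and all genes over 8 cell classes, with the number of pairs in brackets. The 9 genes (6.06% and 7.58%) lie near all genes (7.76% and 6.89%), and the siderophore and lactoferrin list (11 of 22 pairs higher in RP) lies farthest from them.

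The levels of the genes across classes were also compared with those of 8031 other genes, as Pearson correlations of log2(CPM + 10) over 23 class-by-library values. These are descriptions, since values of 1 library share its depth and free RNA, and a few myeloid classes set most of them. Slc7a11 was most like Gsr, glutathione reductase (0.97), followed by the C-type lectins Clec4e and Clec4d (0.97 each). Hmox1 was most like Srxn1, which regenerates oxidised peroxiredoxins (0.93), Ftl1 most like its copy Ftl1-ps1 (0.96) and then Emilin2 (0.95), and Fth1 most like Hgsnat (0.90). Gpx4, Acsl4, Tfrc and Ncoa4 had lower leading values than these, of 0.84, 0.82, 0.86 and 0.79, with Tmem219, Qpct, Kcnq5 and Ntng2. Slc40a1 was most like Trpm2 (0.97), but from few counts: neutrophils, its highest class, had 8 Slc40a1 UMIs in RP and 13 in 377P. That value is therefore not comparable with those of genes with more UMIs. Within the 9, Hmox1 with Ftl1 (0.89), Slc7a11 with Ftl1 (0.87) and Hmox1 with Fth1 (0.87) were the closest pairs. Gsr had 1303 CPM in neutrophils of RP and 1266 CPM in those of 377P, against medians over classes of 48.2 and 41.6 CPM, and Fbxl5, a sensor that limits the iron regulatory protein Ireb2, was also highest in neutrophils, with 520 and 756 CPM.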

How the data were processed

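The authors deposited 1 matrix of raw, unnormalized UMI counts for each library, made with Cell Ranger 7.0.1 according to the file headers. Cell Ranger, STAR and mm10 are listed in the submitters' processing notes, and the counting settings were not stated. RP has 18112 barcodes with a median of 4144 UMIs, and 377P has 15466 with a median of 5288. Barcodes with under 200 genes (3 in RP, 0 in 377P) or over 20% mitochondrial UMIs (819 and 115) were dropped, and Scrublet doublets (Scanpy 1.11.5, expected share 12%) were removed, 569 (3.29%) in RP and 836 (5.45%) in 377P.

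A marker counted as present where its UMIs exceeded what 20% free RNA of the library's mean profile would give (Poisson probability under 0.01). A cell joined a class with at least 3 markers present and at least 2 times those of any other class. Among the 8 compared classes, 84.1% to 99.7% of gated cells, both libraries together, lay in a Leiden cluster of the same name. The lowest share was of gland or respiratory epithelial cells. Clusters of that name held 71, 150, 22 and 0 cells of 377P, fewer together than the 363 gated. Part of that class of 377P therefore lay in other clusters. Sub-classes took the marker list with the largest share present, with at least 2 markers present. UMIs were summed per class and library and divided by the class total, giving CPM with Poisson intervals. Shares of cells have Clopper-Pearson intervals where given. Ratios are RP over 377P. Levels between genes were not compared, since 3′ UMIs do not scale with length. The steps were tested on simulated counts.

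The 9 genes, the pathway lists, the markers and the alternatives were chosen with earlier results of these data known. Pathway genes were picked by a rule: per class, up to 3 in each direction whose interval bound nearest to 1 was farthest from it, with at least 20% of the gene's highest CPM over classes. The text gives only some of the pairs picked, and that choice followed no rule. It leaves out, for example, Gls2, Slc48a1 and Vkorc1l1, all higher in T or NK cells of RP. Fech, Ltf, Gclc, Hamp, Gsr and Fbxl5 were named after their values were seen. Promoters, from RefSeq, matched 7 of the 9 genes.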

Additional observations from a re-analysis of the deposited data

Results flagged for a closer look

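Ncoa4 was flagged because its difference between the libraries went one way in one cell class and the opposite way in another. The log2 ratio of RP over 377P was 1.15 in monocytes or macrophages (interval 0.57 to 1.77, from 109 UMIs in RP and 32 in 377P) and -1.23 in B or plasma cells (-2.32 to -0.29, from 10 UMIs in RP and 114 in 377P). Each value rests on 1 library per title, and the difference between the classes was not tested. With cells thinned to 1500 UMIs, the value in B or plasma cells was -0.39. With Leiden clusters as classes, the value in monocytes or macrophages was 0.55 and that in B or plasma cells -0.74.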

How the results depend on the processing

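The 4 pairs of a gene and a class higher in RP became 2 with Leiden clusters as classes, 2 with a stricter marker gate and 1 with cells thinned to 1500 UMIs. The 5 higher in 377P became 3 with the mean over cells of normalised UMIs and 3 with totals that leave out mitochondrial, immunoglobulin and secretory genes. Of the 9 called pairs, all 9 stayed past 1.5-fold with a mitochondrial limit of 10%, with at least 1000 UMIs per cell and with no minimum count, and 8 with doublets kept and with a median-of-ratios size factor. With Leiden clusters 4 of 9 stayed: 4 pairs were then higher in 377P, but Acsl4 and Hmox1 in gland or respiratory epithelial cells and Hmox1 in fibroblasts were no longer among them. With the mean over cells 7 of 9 stayed, with the stricter gate 6 of the 7 that could be computed, and with thinned cells 2 of 4. One direction reversed: Hmox1 in gland or respiratory epithelial cells had a log2 ratio of 0.14 as a mean over cells, against -0.78. Hmox1 in fibroblasts, at -0.61, was -0.57 with clusters and -0.58 without the named gene groups, both just under the 1.5-fold line. Acsl4 in gland or respiratory epithelial cells was lost in 7 alternatives, from -0.04 with thinned cells to -0.58. For sub-classes, the mean over cells was added after seeing the data and reversed none of the called values of Fth1, Ftl1, Slc7a11 and Hmox1. It did reverse Hmox1 in Spp1 macrophages, which was not called, from log2 0.22 to -0.07. Fth1 in Spp1 macrophages (log2 0.52) and Slc7a11 in resident macrophages (-0.49) then fell under 1.5-fold, and Fth1 in suprabasal (0.61) and Slc7a11 in basal keratinocytes (0.60) came past it. The suprabasal value still includes the few cells of RP with very high Fth1. Without a minimum count, pathway pairs numbered 156 higher in RP and 99 higher in 377P of 930, since low counts give wide ratios. No paired analysis was possible because each title has 1 library and no test was made. Leaving out a replicate was not possible for the same reason. Depth limits Slc40a1 most, and Ncoa4 and Tfrc in small classes.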
